A study of Homo sapiens with 9 samples.

Results

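The 10 genes described here were chosen by name as the ligands JAG1, JAG2 and DLL1, the receptors NOTCH1, NOTCH2 and NOTCH3, and the targets HES1, HES4, HEY1 and HEY2. They are 10 of the 18970 genes in the count tables, and 7 of them had enough reads to be tested. Notch signalling passes between touching cells. A ligand of the Jagged or Delta family on one cell binds a NOTCH receptor on its neighbour, proteases cut the receptor, and the released intracellular part joins the DNA-binding protein RBPJ to switch on HES and HEY genes, which encode transcriptional repressors. In neural crest and craniofacial development the pathway is known for roles in cell fate choice and in patterning of the pharyngeal arches, and loss of JAG1 or NOTCH2 function in people causes Alagille syndrome.

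The cells were cranial neural crest cells (CNCCs) grown from the human embryonic stem cell line H9, an established line, with SOX9 tagged so that the degrader dTAGV-1 removes the protein. SLAM-seq marks newly made RNA: cells took up 100 uM 4-thiouridine for 2 h, and sequencing from the 3′ end showed labelled transcripts as T>C conversions. All 9 samples carried the tagged SOX9 and the label, and formed groups of 3, one at 0h and the others after 3h or 24h in 500 nM dTAGV-1 (the vehicle was DMSO), with labelling begun 1 h and 22 h after the degrader in the later groups. The same 3 cultures gave each group, S9CC13_R6, S9CC47_R5 and S9CC47_R6, named for 2 clones and 2 differentiation batches. Untagged cells given dTAGV-1 were not analysed here, so that in these samples an effect of the compound itself cannot be told apart from loss of SOX9. In the paper, untagged CNCCs given 500 nM dTAGV-1 had no regulatory element with a significant change in chromatin accessibility, which is not a measure of RNA. T>C reads count the reads that carry a conversion, and total reads count all reads of the gene, labelled or not.

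Libraries held 16955633 to 28782678 total reads and 3130673 to 5475800 T>C reads. The labelled fraction of a library ranged from 15.92% to 21.3%. The counts hold no measure of SOX9 protein. The samples are labelled as having full relative SOX9 at 0h and none at 3h and 24h. The paper reports that tagged CNCCs given the same concentration of the degrader lost SOX9 fully within an hour. The SOX9 transcript rose, its log2 fold change in T>C reads being 0.77 at 3h and 1.15 at 24h against 0h. All 8 neural crest markers examined, TWIST1, TFAP2A and TFAP2B among them, passed the filter on low reads, while POU5F1 and NANOG, which define pluripotent cells, SOX10 of the glial lineage and PECAM1 and CDH5 of endothelium did not. Of the 5 pluripotency markers LIN28A and DPPA4 passed, and of the 5 neural progenitor markers only NES did, with SOX1 at no read. Normalized reads below are counts divided by the DESeq2 size factor of the library, and calling a gene required a p under 0.1 after Benjamini-Hochberg adjustment over all genes in the DESeq2 fit.

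JAG1 was the one ligand with a substantial read count, and it rose at both times. JAG1 encodes the Jagged1 ligand and lies on chromosome 20 (hg38, 10637684 to 10673999, minus strand), with the last exon of its canonical transcript, exon 26, at 10637684 to 10639955. In S9CC13_R6, S9CC47_R5 and S9CC47_R6, normalized T>C reads were 105, 122 and 101 at 0h, 167, 209 and 151 at 3h, then 264, 269 and 208 after 24h. Every 3h library was above every 0h library, and every 24h library was above every 0h library. The fitted log2 fold change in T>C reads was 0.64 at 3h (DESeq2 adjusted p = 0.0448, SE 0.188) and 1.23 at 24h (DESeq2 adjusted p = 2.33e-08, SE 0.191).

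In total reads JAG1 gave 200, 244 and 190 normalized reads at 0h, 354, 340 and 238 at 3h, then 442, 461 and 369 after 24h in the same order of cultures. The 3h libraries overlapped those at 0h, since S9CC47_R6 at 3h (238) lay below S9CC47_R5 at 0h (244), and the 24h libraries lay above all others. The total change was 0.49 at 3h (DESeq2 adjusted p = 0.0613, SE 0.15) and 1.117 at 24h (DESeq2 adjusted p = 4.24e-11, SE 0.153). The call at 3h was lost in T>C reads with size factors taken from total reads (DESeq2 adjusted p = 0.146) and in total reads without the surrogate variable (DESeq2 adjusted p = 0.178). Without any 1 of the 3 cultures it was not called in either measure. At 24h the T>C change without S9CC13_R6 was 1.16 and not called (DESeq2 adjusted p = 0.583), and with the block in place of the surrogate variable 1.09 and called (DESeq2 adjusted p = 0.0096). In total reads it was not called at 24h without S9CC13_R6 (0.97) or S9CC47_R6 (0.89), and with the block it was called without either. A bulk library cannot tell more RNA per cell from more cells that express the gene, here and for every gene below.

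JAG2 and DLL1, a second Jagged ligand and a Delta ligand, were near the floor. JAG2 had 1 to 19 total reads per library, 80 over all 9, of which 21 carried a conversion. DLL1 had 9 total reads over all 9 libraries, 7 of them converted. Neither gene reached 1 CPM (CPM scales each library to the same total) in total reads in any library, and neither was tested.

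The 3 receptors were read in every library, and NOTCH2 alone was called, at 24h in total reads. NOTCH1 (chromosome 9, 136494433 to 136546048, minus strand), the receptor best known from T cell development, had normalized T>C reads of 164 to 178 in the 0h libraries, of 149 to 222 in the 3h libraries and of 166 to 186 in the 24h libraries. Those ranges overlapped throughout. Its T>C log2 fold change came to 0.14 at 3h (SE 0.18) and -0.05 at 24h (SE 0.187), and in total reads 0.13 (SE 0.144) and -0.01 (SE 0.151), with DESeq2 adjusted p from 0.955 to 0.991 over these fits. Neither direction at 24h held across processing choices.

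NOTCH2 (chromosome 1, 119911553 to 120100779, minus strand) had normalized total reads of 1183, 1500 and 1183 at 0h, 1147, 1159 and 1630 at 3h, then 1755, 1508 and 2211 after 24h in S9CC13_R6, S9CC47_R5 and S9CC47_R6. All 24h libraries were above all 0h libraries, but S9CC47_R5 moved only from 1500 to 1508. The within-culture log2 change at 24h was 0.57, 0.01 and 0.90 in the same order. The fitted total change at 24h was 0.33 (DESeq2 adjusted p = 0.0244, SE 0.108), and in T>C reads it was also 0.33 but not called (DESeq2 adjusted p = 0.35, SE 0.166). Without S9CC13_R6 the fitted total change was -0.15, although the 2 cultures kept changed by 0.01 and 0.90. Without S9CC47_R6 it was 0.07, where the cultures kept changed by 0.57 and 0.01. Neither was called, and both fits held the surrogate variable and had 1 residual degree of freedom, so the sign of -0.15 is not that of either culture.

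NOTCH3 (chromosome 19, 15159038 to 15200995, minus strand), a receptor with a known role in vascular smooth muscle, ran from 89.6 to 138 in normalized T>C reads before depletion, then 131 to 179 at 3h and 120 to 147 at 24h. It was higher at 3h than at 0h in all 3 cultures, but the groups overlapped, and the change of 0.44 (SE 0.215) was not called (DESeq2 adjusted p = 0.665). In total reads the change was 0.14 at 3h (DESeq2 adjusted p = 0.914, SE 0.112) and 0.26 at 24h (DESeq2 adjusted p = 0.142, SE 0.116).

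**Figure D1:**
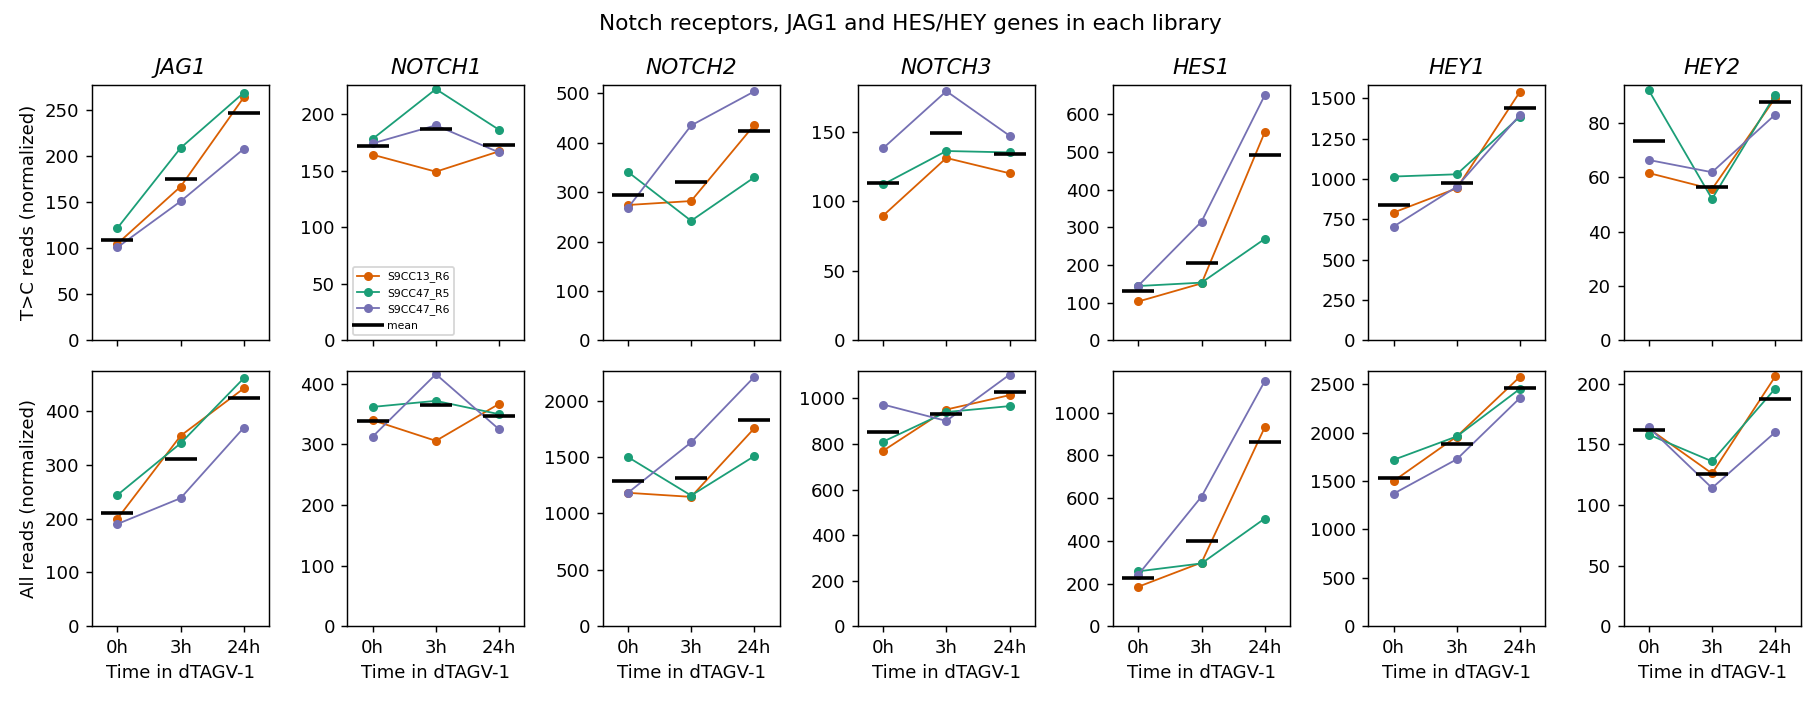
Normalized T>C reads (top) and normalized reads of all kinds (bottom) for the 7 tested genes at 0h, 3h and 24h, with 1 line per culture, a black bar at the mean of 3 libraries and axes that start at 0. HES1 spread most between cultures at 24h, from 269 to 650 normalized T>C reads, while NOTCH1 stayed between 149 and 222 at all times.

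HES1, HES4 and HEY2 are shown first by the DNA before their starts, because each holds GTGGGAA, a core sequence bound by RBPJ, within the 300 bases searched (250 before and 50 after the start). The promoters came from RefSeq on GRCh38.p14, and those of 8 of the 10 genes were searched. HEY1 was left out by a choice made beforehand, and DLL1 was not searched either. GTGGGAA was searched on both strands and stood in 3 of the 8, against 6.25% of 35116 promoters. Those 3 were all the HES and HEY genes searched, and no receptor or ligand held it. As HES and HEY genes were chosen by name as Notch targets, the count is a description and no test. The starts are those of the RefSeq table, which matched the start of the canonical GENCODE transcript in all 3. The GENCODE gene span begins at the same base for HES1, but 75 bases earlier for HES4 and 1968 bases earlier for HEY2, from a longer transcript in each. The 250 bases before the start follow, or for HES4 the first 195 of them, 5′ to 3′ on the strand of the gene, for HES1 at chr3:194135898-194136147 (plus strand), HES4 at chr1:1000153-1000347 (minus strand) and HEY2 at chr6:125749382-125749631 (plus strand). Capitals mark GTGGGAA, or its reverse complement in HEY2.
HES1: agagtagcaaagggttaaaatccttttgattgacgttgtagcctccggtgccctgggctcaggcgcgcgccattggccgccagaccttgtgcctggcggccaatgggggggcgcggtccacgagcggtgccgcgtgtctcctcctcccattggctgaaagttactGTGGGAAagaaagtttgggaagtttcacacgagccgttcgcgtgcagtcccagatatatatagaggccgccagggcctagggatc
HES4: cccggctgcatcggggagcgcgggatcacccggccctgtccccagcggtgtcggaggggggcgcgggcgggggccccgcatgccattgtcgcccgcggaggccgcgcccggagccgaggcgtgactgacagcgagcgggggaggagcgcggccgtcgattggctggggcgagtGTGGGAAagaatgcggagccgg
HEY2: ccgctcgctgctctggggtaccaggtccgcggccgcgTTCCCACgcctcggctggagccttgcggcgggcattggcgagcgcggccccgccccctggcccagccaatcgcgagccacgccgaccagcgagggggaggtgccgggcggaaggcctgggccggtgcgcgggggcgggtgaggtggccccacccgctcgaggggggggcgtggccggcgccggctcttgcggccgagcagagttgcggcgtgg

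The match began 85 bases before the start in HES1 and 77 bases before it in HES4, both on the strand of the gene, and 213 bases before it on the other strand in HEY2, which had a further match across its start. Of the motifs bound by HES and HEY proteins, CACGTG was in none of the 8 promoters (7.26% of all) and CACNAG was in 4 of them (38% of all), with 4 matches in HES1. ACAAAG and AACAAT, core sequences bound by SOX proteins, were in none of the 8, against 16.1% and 10.1% of all promoters. These are matches of letters in a short window and were not tested as sites.

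HES1 had the largest fitted rise among the 7 tested genes at 24h, but the size of its rise depended on the culture. HES1 encodes a repressor that is a direct target of Notch in many tissues (chromosome 3, 194136148 to 194138732, plus strand, last exon 4 at 194137683 to 194138732). In S9CC13_R6, S9CC47_R5 and S9CC47_R6, normalized T>C reads were 103, 144 and 145 at 0h, 151, 153 and 315 at 3h, then 552, 269 and 650 after 24h. The groups at 3h and at 24h did not overlap the 0h group, although at 3h S9CC47_R5 stood only at 153 against 144 in its own 0h library. Within cultures the log2 change at 24h was 2.42, 0.90 and 2.17, so that in S9CC47_R5 HES1 stood below JAG1, which changed by 1.14 there. Without S9CC13_R6 the fitted value of HES1 was 0.98 and that of JAG1 was 1.16. The 3h step was largest in S9CC47_R6, and was 0.55 in S9CC13_R6 and 0.09 in S9CC47_R5.

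The fitted log2 fold change of HES1 in T>C reads was 0.73 at 3h (DESeq2 adjusted p = 0.0114, SE 0.191) and 1.55 at 24h (DESeq2 adjusted p = 9.7e-13, SE 0.195). The call at 3h was lost with the culture as a block (0.57, DESeq2 adjusted p = 0.98) and without the surrogate variable (0.60, DESeq2 adjusted p = 0.999), while at 24h the block gave 1.84 (DESeq2 adjusted p = 4.87e-05). Total reads of HES1 were 185, 257 and 242 at 0h, 298, 294 and 607 at 3h, then 931, 504 and 1147 after 24h. The total change was 0.87 at 3h (DESeq2 adjusted p = 1.26e-05, SE 0.16) and 1.59 at 24h (DESeq2 adjusted p = 1.87e-19, SE 0.165), and at 3h it was not called without the surrogate variable (0.76, DESeq2 adjusted p = 0.393). Without S9CC47_R6, the culture with the highest 3h value, the total change at 3h was -0.01, and with the block 0.41, neither called. At 24h the T>C change was 0.98 without S9CC13_R6 (DESeq2 adjusted p = 0.591) and 1.66 without S9CC47_R6 (DESeq2 adjusted p = 1), and with the block 1.54 (DESeq2 adjusted p = 7.24e-05) and 1.69 (DESeq2 adjusted p = 0.114).

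HEY1, a repressor related to HES1 and a known Notch target in vessels and mesenchyme (chromosome 8, 79762371 to 79767857, minus strand), rose at 24h. Normalized T>C reads were 792, 1015 and 705 at 0h, 942, 1029 and 952 at 3h, then 1541, 1387 and 1397 after 24h in the same order of cultures. The 24h libraries were above all the others, and the 0h and 3h libraries overlapped. The log2 change at 24h within cultures was 0.96, 0.45 and 0.99, so S9CC47_R5 was the lowest here too. The change in T>C reads was 0.24 at 3h (DESeq2 adjusted p = 0.665, SE 0.117) and 0.79 at 24h (DESeq2 adjusted p = 1.73e-08, SE 0.121).

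In total reads HEY1 gave 1501, 1720 and 1370 normalized reads at 0h, 1961, 1962 and 1726 at 3h, then 2579, 2454 and 2360 after 24h. The 3 groups did not overlap, each later group lying above the earlier one. The change of 0.29 at 3h missed the threshold (DESeq2 adjusted p = 0.113, SE 0.0939), and that of 0.72 at 24h passed it (DESeq2 adjusted p = 1.88e-11, SE 0.0974). At 24h the T>C change was 0.49 without S9CC13_R6 and 0.70 without S9CC47_R6, neither called, and with the block 0.72 (DESeq2 adjusted p = 0.0101) and 0.71 (DESeq2 adjusted p = 0.00293).

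HEY2, known for its role in heart and vessel development (chromosome 6, 125747664 to 125761269, plus strand), was lower at 3h than at 24h. Its normalized total reads were 163, 158 and 164 at 0h, 126, 136 and 114 at 3h, then 206, 196 and 160 after 24h. All 3h libraries were below all others, and the 0h and 24h groups overlapped. Against 0h the total change was -0.40 at 3h (DESeq2 adjusted p = 0.52, SE 0.19) and 0.28 at 24h (DESeq2 adjusted p = 0.402, SE 0.193), and neither was called. T>C reads ranged from 52 to 91.9 normalized reads over the 9 libraries, with no call.

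HES4, a HES gene with no counterpart in mouse, had 32 total reads over all 9 libraries and no converted read. A count of 0 in 32 reads allows a T>C share of up to 9.38%, and intervals and limits of this kind cover counting error only. HES4 was not tested.

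Over the 7 tested genes, 2 were called higher in T>C reads at 3h (JAG1 and HES1) and 3 at 24h (JAG1, HES1 and HEY1), where 1.01% and 2.38% of the 12037 genes tested were called higher. In total reads 2 were called higher at 3h (JAG1 and HES1) and 4 at 24h (those, HEY1 and NOTCH2), where 1.11% and 7.11% of 11710 genes were. None of the 7 was called lower in these comparisons, for which 0.789% and 2.59% of genes in T>C reads and 0.777% and 7.85% in total reads were called lower. At an unadjusted p under 0.05, HEY2 was lower at 3h in total reads, which was the only one of the 7 with a fall at that level. In T>C reads the 7 had a median log2 fold change of 0.24 at 3h and 0.33 at 24h, beside -0.011 and 0.001 over all genes tested. Both comparisons used the same 0h libraries.

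**Figure D2:**
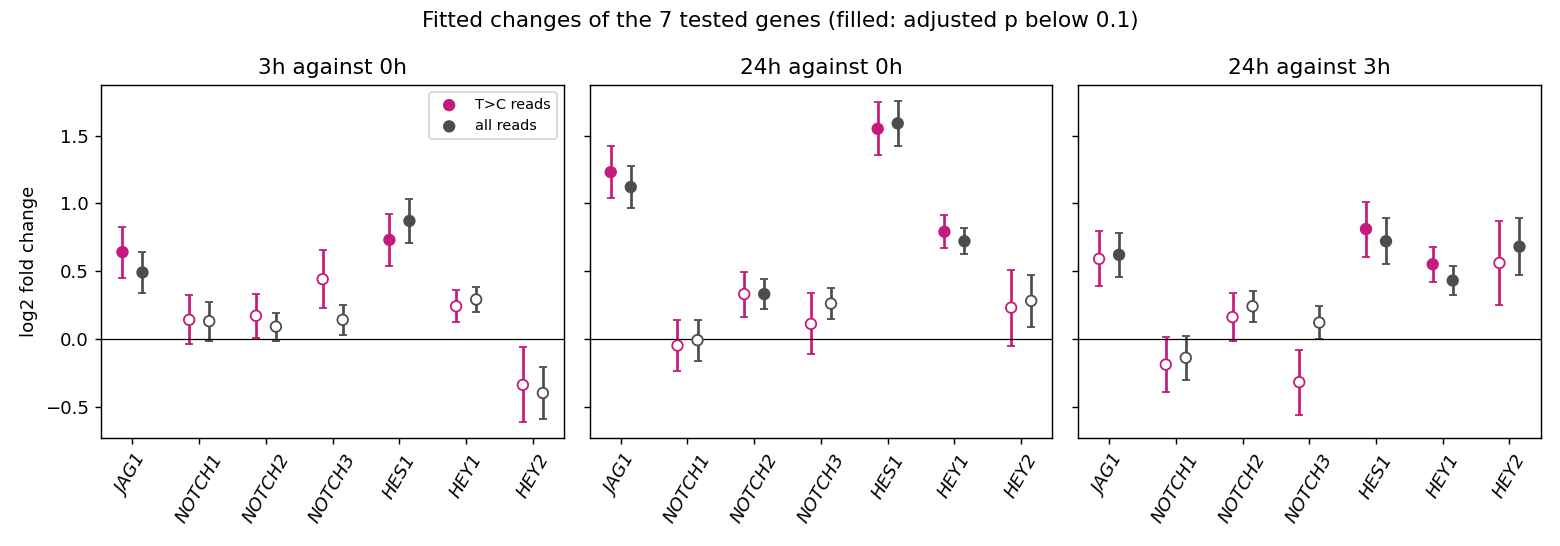
Fitted log2 fold changes with SE from DESeq2 for the 7 tested genes in T>C reads and in all reads, in 1 panel per pair of times. Filled points passed an adjusted p of 0.1, and at 24h against 0h these were JAG1, HES1 and HEY1 in both measures and NOTCH2 in all reads.

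The step from 3h to 24h was tested in the same fit. In T>C reads HES1 rose by 0.81 (DESeq2 adjusted p = 0.0119, SE 0.203) and HEY1 by 0.55 (DESeq2 adjusted p = 0.00639, SE 0.13), while JAG1 gave 0.59 (DESeq2 adjusted p = 0.189, SE 0.202). The 2 calls compare with 0.54% of genes called higher and 0.598% called lower. In total reads 4 of the 7 were called higher, against 2.51% of genes (2.88% were called lower). These were HES1 at 0.72 (DESeq2 adjusted p = 0.00182), JAG1 at 0.62 (DESeq2 adjusted p = 0.00589), HEY1 at 0.43 (DESeq2 adjusted p = 0.00201) and HEY2 at 0.68 (DESeq2 adjusted p = 0.0383), which was not called in any fit without 1 of the cultures. HES1 and HEY1 were called in both measures without S9CC47_R5 (T>C changes of 0.96 and 0.67) and in neither without S9CC13_R6 (0.43 and 0.29). These 2 fits differ in design, since without S9CC47_R5 only batch R6 is left and no batch term is fitted. Without the surrogate variable JAG1 was no longer called (0.45, DESeq2 adjusted p = 0.127).

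The cultures differed most in HES1. In the total reads of all 3 times, HES1 was lower in S9CC47_R5 than in S9CC47_R6, the same clone in another differentiation batch, by -0.71 on the log2 scale (DESeq2 adjusted p = 0.0792, SE 0.22). This fit took the 3 times of a culture as its replicates and gave 1 ratio for all times. Its p therefore compares these cultures alone, and not clones or batches in general. Taken by time, the log2 ratio stood at 0.09 in the 0h libraries, -1.04 in the 3h libraries and -1.19 in the 24h libraries, so these cultures were close at 0h. It was the only one of the 7 genes called, where 1.65% of all genes were, and with edgeR 0 were called. Between the 2 clones of batch R6, S9CC13_R6 and S9CC47_R6, 0 of the 7 were called, where 3.38% of all genes were, and HES1 stood at -0.57 (SE 0.22, unadjusted p 0.0101, DESeq2 adjusted p = 0.175). Without the 0h samples HES1 and NOTCH2 were called in both comparisons. Among the smooth muscle markers, TAGLN, an actin-binding protein gene, stood at -1.53 in S9CC47_R5 and -1.44 in S9CC13_R6 against S9CC47_R6 (DESeq2 adjusted p = 3.93e-09 and 5.13e-08) and fell by 0.75 at 24h in total reads (DESeq2 adjusted p = 0.000991). RGS5, a pericyte gene of the same list, was lower in S9CC47_R5 too, at -1.09 (DESeq2 adjusted p = 1.01e-09), and rose at 24h by 1.16 in total reads (DESeq2 adjusted p = 3.78e-12). In S9CC13_R6 RGS5 was not called (-0.30). ACTA2 (-0.24 in S9CC47_R5, -0.22 in S9CC13_R6) and CNN1 (-0.18 and 0.12) of the list were called in neither. The 5 markers of that list summed to 48 to 71.7 CPM at 0h and 49.3 to 120 CPM at 24h, 4 of them passed the filter, 1 was called higher and 1 lower at 24h, and MYH11, which defines smooth muscle, stayed below the filter. From the other marker lists, PRRX1 was called higher against S9CC47_R6 in S9CC47_R5 (0.53) and in S9CC13_R6 (0.59), and TIE1 in S9CC47_R5 (1.27). The part of any of these markers in the HES1 result was not tested.

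The level of a gene at 0h was read as CPM, and since a 3′ end library gives reads from the transcript end, no division by length was made. HEY1 was highest at 70 CPM ± 8.79 (SD, n = 3), followed by NOTCH2 at 58.9 ± 8.66, NOTCH3 at 38.9 ± 4.2, NOTCH1 at 15.5 ± 1.32, HES1 at 10.4 ± 1.66, JAG1 at 9.66 ± 1.39 and HEY2 at 7.39 ± 0.143. HEY1 and NOTCH2 overlapped between libraries, as did HES1 and JAG1, and the other neighbours among these 7 did not. JAG2 stood at 0.391 ± 0.413, HES4 at 0.141 ± 0.0946 and DLL1 at 0.0116 ± 0.0201 CPM.

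The T>C share, the percent of the reads of a gene that carry a conversion, separated the receptors. At 0h it was 13.5% ± 1.91 for NOTCH3, 23.2% ± 0.863 for NOTCH2 and 51.7% ± 4.94 for NOTCH1 (SD, n = 3), and no library of one overlapped a library of another. NOTCH3 converted reads numbered 360 of 2650 at 0h (13.6%, Wilson 95% interval 12.3% to 14.9%) and those of NOTCH1 532 of 1023 (52%, interval 48.9% to 55.1%). Among 10220 protein-coding genes with at least 50 total reads in each 0h library, whose median share was 26.9%, 16.4% lay below NOTCH3, 41.5% below NOTCH2 and 89% below NOTCH1.

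The ligand and the targets sat high in that range. The share was 52.8% ± 1.66 for JAG1, 58.2% ± 3.59 for HES1, 55.4% ± 6.31 for HEY1 and 46.5% ± 13.4 for HEY2, above 90%, 94.5%, 92.1% and 83.2% of genes. HEY2 was the least even, at 36.6% in S9CC13_R6 and 61.8% in S9CC47_R5. A share depends on how many T bases a read covers as well as on how much of the RNA is new. T made up 28.3% of the last 300 bases of the canonical NOTCH1 transcript, 33.3% for NOTCH2, 31% for NOTCH3, 26% for JAG1, 39% for HES1, 38.3% for HEY1 and 40.3% for HEY2, beside a median of 31.7%. Across 10030 genes, which share libraries and are not independent, the share and this T content had a Spearman rho of 0.385, and among the receptors NOTCH1 had the highest share with the lowest T content.

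**Figure D3:**
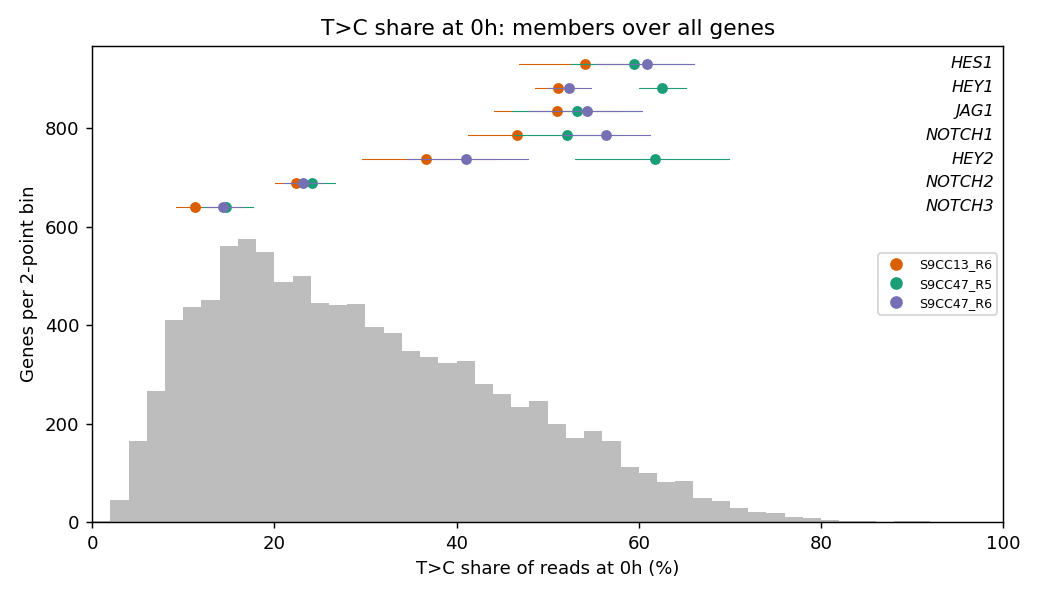
Histogram of the T>C share at 0h (mean of 3 libraries, in percent) over 10220 genes in 2-point bins, with the 7 tested genes above it as 1 point per library and its Wilson 95% interval. NOTCH3 and NOTCH2 lie in the lower part of the distribution and HES1, HEY1, JAG1 and NOTCH1 in its upper part.

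The shares were then compared between times, where 3 samples against 3 cannot give an exact permutation p below 0.1, nor a sign flip over 3 cultures one below 0.25. The HES1 share was 54.1%, 59.5% and 60.9% at 0h for the cultures S9CC13_R6, S9CC47_R5 and S9CC47_R6, and 42.4%, 50% and 52.4% in their 3h libraries, all below 0h, a mean difference of -9.90 percentage points (two-sided exact permutation p = 0.1, exact sign-flip p = 0.25). At 24h it was 60.4%, 57.4% and 62.9%, overlapping 0h. The JAG1 share was 51%, 53.2% and 54.3% at 0h and 61.1%, 62.9% and 62.6% at 24h, all above 0h, a mean difference of 9.35 points (exact permutation p = 0.1, exact sign-flip p = 0.25). In the other 12 of 14 comparisons of the 7 genes the groups overlapped. Any groups of 3 that do not overlap give a permutation p of 0.1. How many of all genes separated in this way was not counted, so these separations are given as values only. The labelled share of whole libraries also moved between 0h and 3h. It went from 18.53% to 15.92% in S9CC13_R6, from 20.12% to 18.14% in S9CC47_R5 and from 18.79% to 19.52% in S9CC47_R6. At 24h it was 19.81%, 20.43% and 21.3% in the same order, above 0h in each culture. The part of these library shares in the HES1 and JAG1 shares was not tested.

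By the pattern over the 9 libraries, the genes most like HES1 in normalized T>C reads, among 8676 with a mean of at least 50, were TRAM1 (Pearson r = 0.976), SSBP3 (0.969) and FERMT2 (0.966). Those most like HEY1 were SERPINB9 (0.978), BCOR (0.968) and SEPHS2 (0.967), and those most like JAG1 were CDKN1C (0.978), FGF18 (0.978) and ZIC2 (0.976). For NOTCH1 they were EID2 (0.945), ATP6V1E1 (0.922) and SHQ1 (0.882). Among the 7 genes themselves the closest pairs were JAG1 with HEY1 (0.91) and NOTCH2 with HES1 (0.89), while NOTCH1 ran between -0.21 and 0.34 with the other 6. The points are the same 9 libraries, which share cultures and times, so these values are given as a description.

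The wider pathway was read from a list of 57 textbook genes outside the 10, of which 47 were tested in T>C reads and 45 in total reads. In T>C reads 1 was called higher and 2 lower at 3h, or 2.13% and 4.26% of the 47, where 1.01% and 0.789% of all genes were called. After 24h 1 was higher and none lower, or 2.13% and 0%, where 2.38% and 2.59% of all genes were. In total reads 2 were higher and 3 lower at 3h, then 5 higher and 7 lower after 24h. Those are 4.44% and 6.67% of the 45 at 3h, where 1.11% and 0.777% of all genes were called, and 11.1% and 15.6% at 24h, where 7.11% and 7.85% were. The median change of the list in total reads at 24h was -0.01, beside 0.004 over all genes. None of the 7 genes of the nuclear complex, among them RBPJ, the DNA-binding partner of the receptor, and the coactivators MAML1, MAML2 and MAML3, was called in any time comparison, nor was any of the 5 tested glycosylation genes or the 3 tested other receptors and ligands.

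The corepressor group held most of the calls. TLE1 and TLE3, Groucho-type corepressors that HES and HEY proteins recruit, fell at 3h in T>C reads, TLE1 by 0.50 on the log2 scale (DESeq2 adjusted p = 0.0162, SE 0.135) and TLE3 by 0.67 (DESeq2 adjusted p = 0.0231, SE 0.183). TLE4, of the same family, rose at 24h by 0.48 in T>C reads (DESeq2 adjusted p = 0.021, SE 0.139) and by 0.48 in total reads. By culture, TLE4 went from 121 to 185 CPM in S9CC13_R6, from 95.2 to 119 in S9CC47_R5 and from 101 to 174 in S9CC47_R6 between 0h and 24h. RITA1, which carries RBPJ out of the nucleus, rose at 3h by 0.53 in T>C reads (DESeq2 adjusted p = 0.0081, SE 0.134). L3MBTL3 rose by 0.39 at 24h in total reads.

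The list held 8 genes grouped as other HES and HEY genes and NRARP, namely HES2, HES3, HES5, HES6, HES7, HEYL, HELT and NRARP. Not all of them are known as Notch targets. In total reads 2 were tested, HEYL and HES6, and both were called lower at 24h. In T>C reads neither was called against 0h (DESeq2 adjusted p from 0.174 to 0.87), nor was NRARP, the third tested there. HEYL, the remaining HEY gene, had 5.85, 5.54 and 2.19 CPM at 0h, 2.95, 1.83 and 1.52 at 3h, and 1.51, 1.5 and 1.21 at 24h, so that it fell in all 3 cultures from a low level. In total reads its change was -1.24 at 3h (DESeq2 adjusted p = 0.0458, SE 0.367) and -1.50 at 24h (DESeq2 adjusted p = 0.00264, SE 0.388). HES6, which opposes HES1 in neural cells, fell by 0.45 at 24h in total reads (DESeq2 adjusted p = 0.0235, SE 0.145). Between 3h and 24h HES6 was called lower in T>C reads, at -0.87 (DESeq2 adjusted p = 0.0523, SE 0.248). Among genes that act on receptors and ligands, ADAM10, the protease that makes the first activating cut, rose by 0.39 at 24h in total reads (DESeq2 adjusted p = 0.00971, SE 0.112), and EPN2, an epsin of ligand endocytosis, rose by 0.33 at 3h and 0.31 at 24h. DTX4 and FBXW7, ubiquitin ligase components that act on NOTCH receptors, fell by 0.61 and 0.24 at 24h in total reads (DESeq2 adjusted p = 0.00553 and 0.0608).

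**Figure D4:**
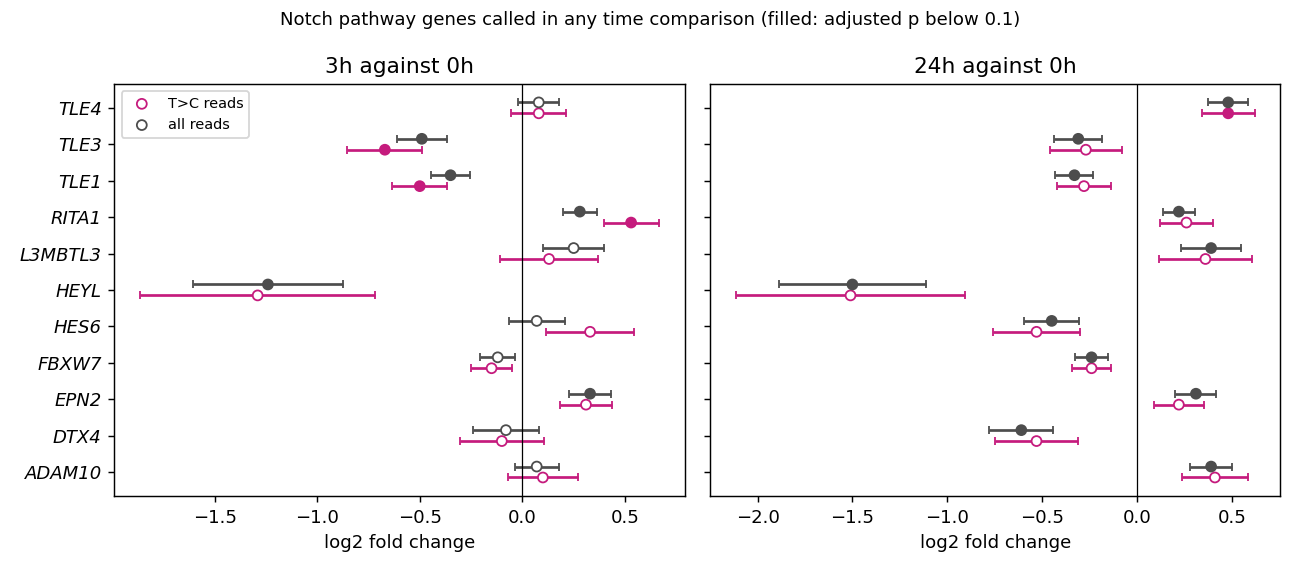
Log2 fold changes with SE from DESeq2 for 11 of the 12 pathway genes outside the 10 that were called in any time comparison, in T>C reads and in all reads, at 3h and 24h against 0h, with filled points at an adjusted p below 0.1. The horizontal scales of the panels differ, and HEYL has the largest fall in both, at -1.24 and -1.50 in all reads.

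Markers of other cell types moved at 3h and at 24h beside these results. The glial list summed to 12 to 17.4 CPM over the 0h libraries, 7.45 to 11.7 CPM at 3h and 0.961 to 1.56 CPM at 24h, with SOX10 below the filter and ERBB3 called lower at both times (3h change -1.06 in total reads, DESeq2 adjusted p = 3.56e-05). The list of pluripotent cells summed to 350 to 414 CPM before depletion, 304 to 349 CPM at 3h and 282 to 306 CPM at 24h. Its POU5F1 and NANOG were below the filter, and LIN28A, an RNA-binding protein gene, was called lower at 3h by -0.25 (DESeq2 adjusted p = 0.0466) and at 24h by -0.41 (DESeq2 adjusted p = 9.55e-06) in total reads. DPPA4, the other gene of that list to pass, was not called, at 0.02 and 0.10. The neuron list summed to 89.3 to 96.6 CPM at 0h and 64.4 to 85.5 CPM at 24h, with 2 of 5 called lower (DCX and TUBB3). Its ELAVL3 and STMN2 went the other way at 24h in total reads, at 0.75 and 0.62, and neither was called. The cartilage list summed to 371 to 404 CPM at 0h and 200 to 261 CPM at 24h, with COL2A1 and COL9A1 called lower. The neural crest list went from 2627 to 2749 CPM at 0h to 2939 to 3166 CPM at 24h, with 3 of 8 called higher, and at 3h TFAP2A was called higher and SNAI2 lower. Their part in the changes of JAG1 and HES1 at 3h, and of these, HEY1 and the other genes at 24h, was not tested.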

How the data were processed

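The authors deposited raw read counts per gene, one table of all reads and one of reads with a T>C conversion. By their methods, reads were trimmed and were mapped and counted with slamdunk, and hg38 is the build in the submitters' processing notes; molecular identifiers and the counted regions are not given in the sources used here. Genes, lists and motifs were chosen with earlier results of these data known. Protein-coding genes with 1 CPM in 3 samples were fitted in DESeq2 1.42.0 (R 4.3.3), whose terms were 1 surrogate variable (sva 3.50.0), the batch of differentiation and time, as in the study's methods, and Wald tests were adjusted over all genes. The fit was also run on simulated counts, which held no batch or culture effect and so cannot test how it handles such effects. Culture comparisons used culture and time. Groups came from sample titles. Samples of 1 culture share clone and differentiation, which pairs them across times: their deviations from group means correlated at 0.0169 to 0.286 in T>C reads and at -0.0566 to 0.606 in total reads over 9 pairs. Cultures are separate by their labels, but p-values measure only their spread. Gene positions came from GENCODE on hg38. The genes named are the 10, pathway genes called between times, SOX9 and the 3 genes most correlated with each of 4 of the 10. Alternatives were edgeR 4.0.16 (quasi-likelihood, TMM), TMM factors, all genes with 1 count, no surrogate variable, a culture block, each culture left out and T>C fits scaled by total-read size factors. All 9 value columns of both tables were used. Values of a few further list genes are not reported here.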

Additional observations from a re-analysis of the deposited data

Results flagged for a closer look

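Several genes differed between the 2 depletion times, by the test of 24h against 3h itself in DESeq2. The log2 difference was 0.81 in T>C reads and 0.72 in total reads for HES1, and 0.55 in T>C reads and 0.43 in total reads for HEY1. In total reads alone it was 0.62 for JAG1 and 0.68 for HEY2. All 3 cultures were higher at 24h in each of these 6 results. Groups of 3 libraries are too small for a check of single outlying libraries.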

How the results depend on the processing

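JAG1, HES1 and HEY1 were higher at 24h than at 0h in both measures under all 69 alternatives run for them, and were called in 57. Calls at 3h were less stable. With the replicate block, 1 of the 7 genes was called at 3h in T>C reads (JAG1), with no other count of calls moved by over 1.5 times. Without the surrogate variable 1 was called at 3h in T>C reads and 0 in total reads, with size factors from total reads 1 in T>C reads, and with all genes of 1 count or more 1 in total reads. NOTCH1 at 24h against 0h changed sign to 0.0057 in T>C reads and 0.0400 in total reads without the surrogate variable, to 0.0073 and 0.0403 with the replicate block, and to 0.0105 in total reads with all genes of 1 count or more. For S9CC47_R5 against S9CC47_R6, 0 genes were called with edgeR, with all genes of 1 count or more, without the 3h samples, without the 24h samples and in T>C reads, and 2 were called without the 0h samples, as were 2 for S9CC13_R6 against S9CC47_R6. Between cultures NOTCH1 changed sign to -0.0302 without the 0h samples (S9CC47_R5) and to 0.1460 without the 3h samples (S9CC13_R6), and HEY2 to -0.0434 in T>C reads (S9CC13_R6). The median rise of the T>C share of the 7 genes at 24h was 2.06 points, from 2.10 to 4.12 points without a culture, and turned to -0.11 points (-0.1089) when each share was divided by that of its library. Leaving out each culture, in the reported design or in the block fit chosen after seeing the data, gave 0 to 1 genes called at 3h in either measure, 0 to 4 at 24h in either, and 0 to 2 in T>C reads and 0 to 3 in total reads at 24h against 3h. Without S9CC13_R6 or S9CC47_R6 the reported design keeps 1 residual degree of freedom. Without S9CC47_R5 only batch R6 is left, so the batch term drops out and 2 remain. Without S9CC13_R6 or S9CC47_R6 in that design, HES1 and HEY1 lost their calls at 24h in both measures and JAG1 kept 1 call (T>C reads, without S9CC47_R6), while the block fits kept JAG1 and HEY1 at 24h in both measures and lost HES1 in T>C reads without S9CC47_R6 (DESeq2 adjusted p = 0.114). In T>C reads the ranges that crossed 0 were, at 3h, -0.1256 to 0.2368 for NOTCH1 and -0.2421 to 0.4067 for NOTCH2, and at 24h, -0.1403 to 0.0800 for NOTCH1, -0.0913 to 0.7906 for NOTCH2, -0.0210 to 0.3464 for NOTCH3 and -0.1043 to 0.4325 for HEY2. For 24h against 3h they were -0.2299 to 0.1626 for NOTCH1 and -0.1388 to 0.5487 for NOTCH2. In total reads they were, at 3h, -0.0562 to 0.2301 for NOTCH1, -0.4340 to 0.2191 for NOTCH2 and -0.0126 to 1.0354 for HES1, at 24h, -0.1476 to 0.0842 for NOTCH1 and -0.1503 to 0.7310 for NOTCH2, and for 24h against 3h, -0.3536 to 0.0884 for NOTCH1 and -0.1066 to 0.5199 for NOTCH2. Pathway and marker genes were fitted in the reported design only. The cause of these changes was not tested. JAG2, DLL1 and HES4 had too few reads for any comparison at this depth.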
